A study of Caenorhabditis elegans with 3 samples.

Results

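The genes described here encode aspartic and cysteine proteases of the nematode Caenorhabditis elegans, the proton pump of acidic organelles and a pair of lysosomal membrane proteins. They were chosen by name: every gene whose single symbol in the array's annotation starts with asp-, cpr-, cpl-, cpz- or vha-, together with unc-32, lmp-1 and cup-5. This gave 47 of the 17118 genes on the array, of which 26 are proteases (15 aspartic and 11 cysteine), 19 are pump subunits and 2 are membrane genes. RefSeq names 52 such genes. The aspartic protease genes asp-2, asp-16 and asp-18 had no probe set of their own, and vha-2 and vha-3 are read only by probe sets that carry both names.

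Wild-type hermaphrodite worms, young adults 3 days old from a synchronised culture raised on E. coli, were kept unfed for 24 h at 20 °C in a medium of 0.032 M KCl and 0.051 M NaCl. The control worms had no exposure named in their label, and the other worms were exposed to GO or to rGO in the same medium. The labels give these abbreviations alone. From what is known of the study, GO stands for graphene oxide, a carbon sheet material, and rGO for its reduced form, from which part of the oxygen has been removed. The exposure concentration is not stated in the labels used here. All worms were fasted during the incubation, so fasting was shared by the control. RNA of whole worms from each condition was hybridised to 1 array. With 1 array per condition there is no spread between replicates, no p-value was computed, and "higher" or "lower" compares single arrays.

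In the worm intestine, food proteins and endocytosed material are broken down by aspartic proteases of the cathepsin D and pepsin type and by cysteine proteases of the cathepsin B, L and Z types. Most of these enzymes work at acid pH. The vacuolar proton pump, or V-ATPase, acidifies the lysosome and the gut lumen: its soluble V1 sector hydrolyses ATP, and its membrane-embedded V0 sector carries protons across the membrane. Subunit a of V0 exists in several versions that place the pump in different cells.

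Values are log2 expression values per gene, averaged over the probe sets of a gene, and a difference of 1 unit is 2-fold. A gene entered a comparison when the brighter of its 2 arrays reached 6.79, the median of all gene values, and it was counted at a difference of at least 1 unit. The array-wide medians were 6.87 (control), 6.92 (GO) and 6.86 (rGO). The 24 probe sets of bacterial RNA added before labelling were all lower on the exposed arrays, with median differences of -1.55 for GO and -0.98 for rGO. The median gap between the 3′ and 5′ ends of 8 worm control transcripts was 1.88 in control worms, 2.57 with GO and 1.16 with rGO. The part of these array differences in the results below was not tested. Of the 47 genes, 42 reached 6.79 on at least 1 array. The other 5 were the aspartic proteases asp-7, asp-9, asp-15, asp-19 and asp-11, the last a pseudogene in RefSeq. These 5 were below 6.24, the highest value of 8 probe sets with no expected target, on each of the 3 arrays. No fold is given for them.

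The proteases split into a group that was several-fold lower on both exposed arrays and a group that was higher or little different. On the GO array, 7 of the 21 proteases that passed the floor lay 2-fold or more below the control. These were asp-8, asp-12, asp-13, asp-14, cpr-5, cpr-8 and cpr-9. A single protease, cpr-2, was higher. That is 33.3% lower, where 9.76% of all 9303 genes above the floor were lower, and 4.76% higher, where 8.43% of all genes were. On the rGO array 7 of 21 were lower (33.3% against 9.88% of 9097 genes), again asp-8, asp-12, asp-13, asp-14, cpr-5, cpr-8 and cpr-9, and 3 were higher, cpr-2, cpz-2 and asp-6 (14.3% against 7.99%). The GO and rGO differences are taken from 1 shared control array, so they are not separate observations. Without probe sets that share probes between transcripts, 4 of 13 proteases were lower in each comparison, as asp-13, asp-14 and cpr-5 have no other probe set. The share of all genes in that setting is not given here, so this count has no background beside it. In RNA of whole worms, a smaller share of RNA from the intestine and less of a transcript per intestinal cell cannot be told apart. Nor can a transcript be assigned to the intestine.

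Among the aspartic proteases, the lower genes are asp-8, asp-12, asp-13 and asp-14, which encode enzymes of the pepsin-like family. asp-8 had a log2 value of 8.96 in control worms, 6.27 with GO and 7.0 with rGO. It was 6.47-fold lower with GO and 3.91-fold lower with rGO, and its GO value was barely above the level of probe sets without a target. asp-12 had 11.42 on the control array, 8.83 with GO and 9.41 with rGO, or 6.04-fold and 4.03-fold lower. Both genes had their highest value on the control array and their lowest on the GO array. asp-13 went from 12.19 (control) to 10.19 (GO) and 10.50 (rGO), that is 4.01-fold and 3.23-fold lower. asp-14 had 11.49, 9.60 and 9.48, that is 3.70-fold and 4.02-fold lower. For these 2 genes the GO and rGO values lay within 0.31 and 0.12 of each other, while the control value stood at least 1.69 above both. The sole probe sets of asp-13 and asp-14 share probes with other transcripts by the maker's naming, whereas those of asp-8 and asp-12 do not.

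Of the 6 other aspartic proteases above the floor, none was 2-fold lower. asp-6 was higher on both exposed arrays, with 12.77 in control worms, 13.70 with GO (0.93, under 2-fold) and 13.91 with rGO (1.14, 2.20-fold). Its 2 probe sets differed in size, at 0.69 and 1.16 for GO and at 0.84 and 1.43 for rGO. By the brighter of them asp-6 would count as higher with GO too. asp-3, a cathepsin D-like enzyme that takes part in the necrotic death of worm neurons, had 12.85 (control), 13.17 (GO) and 13.60 (rGO), differences of 0.32 and 0.74. asp-1, a cathepsin D-like gene of the gut, had 13.42, 13.67 and 13.96, differences of 0.25 and 0.54. Both stood highest on the rGO array, with the GO value between the other 2. asp-4, which acts with asp-3 in neuronal necrosis, differed by 0.08 with GO and 0.28 with rGO, and asp-5 by 0.12 and 0.24. For asp-4 and asp-5, 1 of 2 probe sets had exactly the same value on all 3 arrays, a tie that the authors' summary step produces, so their differences come from the other probe set. asp-17 was close to the floor, with 6.96 in control worms, 6.49 with GO and 6.61 with rGO. Its differences of -0.46 and -0.35 had the same sign as those of the 4 lower genes and were under 2-fold.

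**Figure D1:**
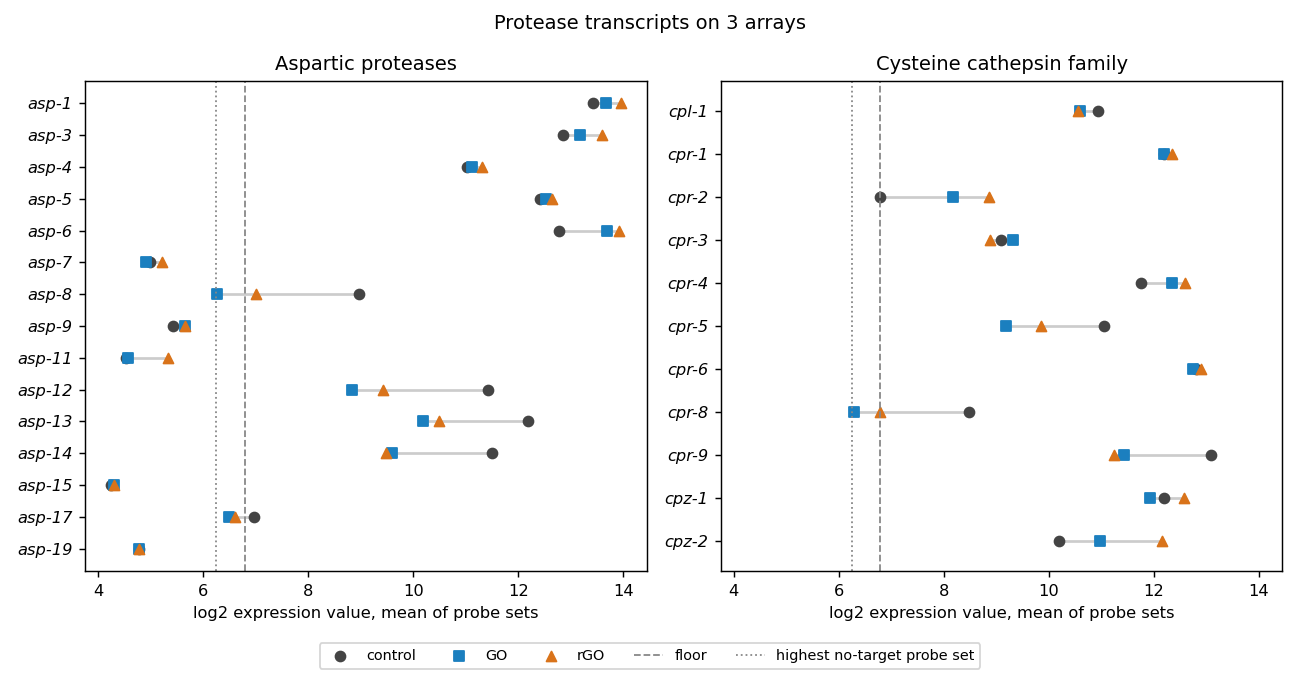
Log2 expression values of 15 aspartic and 11 cysteine protease genes on the control (circle), GO (square) and rGO (triangle) arrays, each gene on its own line with a bar over its range. The dashed line is the floor of 6.79 and the dotted line the highest probe set with no target, 6.24. In asp-8, asp-12, asp-13, asp-14, cpr-5, cpr-8 and cpr-9 the control value stands to the right of both exposed values.

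The 11 cysteine proteases were all above the floor. cpr-8, of the cathepsin B family, had a log2 value of 8.48 in control worms, 6.29 with GO and 6.78 with rGO. It was 4.54-fold and 3.24-fold lower. Its GO value was barely above the level of probe sets without a target, and its rGO value was just under the floor. cpr-5, also of the cathepsin B family, had 11.04, 9.19 and 9.84, or 3.62-fold and 2.30-fold lower. cpr-9 had 13.08, 11.43 and 11.24, or 3.13-fold and 3.57-fold lower. In these 3 genes the control array was the highest of the 3. In cpr-5 and cpr-8 the GO array was the lowest, and in cpr-9 the rGO array was.

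In the opposite direction, cpr-2 had a log2 value of 6.79 in control worms, 8.17 with GO and 8.87 with rGO, that is 2.59-fold and 4.21-fold higher. Its control value was at the floor. cpz-2, of the cathepsin Z type, had 10.20 in control worms, 10.98 with GO (0.79, 1.73-fold) and 12.15 with rGO (1.95, 3.88-fold higher). It was the 1 protease that differed at least 2-fold between the exposed arrays, with GO 1.17 units below rGO. cpr-4, a cathepsin B-type enzyme that worms are known to secrete, had 11.75, 12.34 and 12.58, differences of 0.59 and 0.83. The rGO value was the highest and the control value the lowest in these 3 genes.

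Several other cysteine proteases were close to level. cpl-1, the cathepsin L that the embryo needs to process yolk, had 10.94 in control worms, 10.60 with GO and 10.56 with rGO. Its 2 probe sets gave -0.39 and -0.30 for GO and -0.73 and -0.04 for rGO, and both share probes with other transcripts. cpz-1, a cathepsin Z with a part in molting, had 12.18, 11.93 and 12.57. cpr-1, first described as a gut cysteine protease, had 12.20, 12.19 and 12.35. Averaged over probe sets, none of these 3 differed by more than 0.64 between any arrays. cpr-6, another cathepsin B of the gut, had 12.80, 12.74 and 12.91. cpr-3 had 9.09, 9.32 and 8.88, with its 2 probe sets within 0.06 of each other in the GO difference. Both of those probe sets share probes with other transcripts.

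Over the 21 proteases above the floor, the median difference was -0.06 for GO and 0.10 for rGO, beside 0.03 for all genes in either comparison. The medians are near 0 although the members were spread widely. The interquartile range of the protease differences was 2.10 log2 units with GO and 2.24 with rGO, against 0.63 and 0.71 for all genes. Differences ran from -2.69 (asp-8) to 1.38 (cpr-2) with GO and from -2.01 (asp-12) to 2.07 (cpr-2) with rGO. Of the proteases, 15 had a mean value of at least 10, a limit chosen after the values were seen. Of those 15, 4 were lower with GO and 4 with rGO (26.7% each). Among all 2213 genes that bright, 5.83% were lower with GO and 5.47% with rGO. In the other direction, 0 of 15 were higher with GO, where 3.21% of the bright genes were, and 2 of 15 with rGO (13.3% against 7.23%).

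Position in the genome was not used to choose the genes. In RefSeq's assembly WBcel235, 20 of the 26 proteases lie on chromosome V and 4 on chromosome X, and several are direct neighbours in the order of protein-coding genes. cpr-5 and cpr-8 are neighbours and were both lower, by -1.86 and -2.18 with GO and by -1.20 and -1.69 with rGO. asp-6, asp-12 and asp-5 follow each other on chromosome V, and the middle gene alone was lower: with GO the differences were 0.93, -2.59 and 0.12, and with rGO 1.14, -2.01 and 0.24. asp-8 lies beside asp-7, which was below the level of probe sets without a target on all 3 arrays. asp-15, also below that level, lies beside asp-1.

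The GO and rGO arrays were also compared with each other. Of 19 proteases above the floor in this comparison, 1 (cpz-2) was at least 2-fold lower with GO (5.26%, against 3.73% of 8978 genes) and none was higher (5.59% of all genes). Nevertheless 15 of the 19 had a lower value on the GO array and 4 a lower value with rGO. Of all genes, 48.1% had a lower value with GO. Of the 2213 genes with a mean value of at least 10, 55.7% did, and of the 15 proteases that bright, 12 did (80%). The protease median was -0.24 where that of all genes was 0.00 and that of the bright genes -0.04. The 4 proteases with a lower rGO value were cpr-3 (0.44), cpr-9 (0.19), asp-14 (0.12) and cpl-1 (0.04). By the brighter of its 2 probe sets, cpl-1 was at -0.26. After cpz-2 the most negative values were those of asp-8 (-0.73), cpr-2 (-0.70), cpr-5 (-0.66) and cpz-1 (-0.64). The list therefore holds genes that were lower than in the control (asp-8 and cpr-5) and genes that were higher (cpz-2 and cpr-2). The bacterial RNA probe sets were lower on the GO array as well, by a median of 0.48, in 24 of 24. Their part in this shift was not tested.

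The proton pump showed no comparable split. Of the 19 pump genes, 18 were under 2-fold with GO and 18 with rGO. The exceptions were vha-6 with GO and vha-12 with rGO, both lower (5.26% in each comparison, against 9.76% and 9.88% of all genes). The probe sets of both genes share probes with other transcripts. No pump gene was higher by 2-fold or more. The median was -0.02 with GO and -0.04 with rGO. The interquartile range was 0.54 and 0.43, below that of all genes (0.63 and 0.71). For the 2213 genes with a mean value of at least 10, that range was 0.44 with GO and 0.61 with rGO. Of these bright genes, 5.83% and 5.47% were lower. The 15 pump and membrane genes that bright had ranges of 0.37 and 0.42, and 1 of 15 was lower in each comparison (6.67%).

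Within the pump, most V1 genes had values slightly below the control, by less than 2-fold. Of 9 V1 genes, 7 had a lower value with GO than in the control, 1 a higher value and 1 an equal one, with a median of -0.26. The counts with rGO were also 7, 1 and 1, with a median of -0.27. Of 8 V0 genes, 5 were higher, 2 lower and 1 equal with GO (median 0.29), and 5 were higher and 3 lower with rGO (median 0.22). Of all genes above the floor, 38.8% had a lower value with GO and 40.2% with rGO, and 52.6% and 52.4% a higher one. The V1 shares below 0 were 77.8% in each comparison, and the V0 share above 0, at 62.5%, was close to that of all genes. Of the 21 pump and membrane genes, 14 are read by shared probes alone, and 1 array per condition gives no spread to set these small differences against.

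The V1 gene that stood apart most was vha-12, the B subunit, which forms the ATP-hydrolysing ring together with subunit A. It had 11.31 in control worms, 10.44 with GO (-0.87, 1.83-fold lower) and 10.26 with rGO (-1.05, 2.07-fold lower). vha-15, an H subunit, had 9.87, 9.13 and 9.39, differences of -0.74 and -0.48. vha-18, the other H subunit gene, had 10.83 on all 3 arrays, a tie from the summary step. The paired H subunit genes thus had unlike values, but vha-18 was not resolved between arrays. vha-8, the E subunit of the stalk, had 10.90, 10.44 and 10.63, and vha-10, the G subunit, 11.33, 11.07 and 10.75. vha-13, the catalytic A subunit, had 10.65, 10.40 and 10.21. Its 3 probe sets gave rGO differences of -1.01, -0.32 and 0.00, the last an exact tie, so its rGO value depends on which probe set is read. vha-9 (subunit F) and vha-14 (subunit D), of the pump's rotor, differed from the control by at most 0.07.

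In V0, the genes for subunit a differed among themselves. vha-6 encodes the version at the apical membrane of the intestine, and it had 11.02 in control worms, 9.77 with GO and 10.75 with rGO. This was 2.39-fold lower with GO (-1.25) and 1.21-fold lower with rGO (-0.28), and GO stood 0.98 below rGO. vha-5, the version of the epidermis and the excretory canal, had 7.78, 8.56 and 8.08, differences of 0.78 and 0.30. vha-7, also of the epidermis, had 9.80, 10.24 and 10.07, differences of 0.45 and 0.28. unc-32, the version found in neurons and most other cells, had 9.64, 10.10 and 10.24, differences of 0.47 and 0.60. The intestinal version was thus lowest on the GO array, whereas the 3 other versions had their lowest value on the control array. The probe sets of vha-6, vha-7 and unc-32 share probes with other transcripts, and that of vha-5 does not.

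The ring of proteolipid subunits that carries the protons, and the other V0 parts, were nearly level. vha-1, a c subunit, differed by 0.38 with GO and 0.23 with rGO. Its gene-specific probe set gave 0.18 and -0.12, and its other probe set gave 0.57 and 0.58. The 4 probe sets shared by vha-2 and vha-3, further c subunits outside the counts, had GO differences from -0.20 to 0.19 and rGO differences from -0.36 to 0.20. vha-4 (subunit c″) had 11.14, 11.14 and 11.10, vha-16 (subunit d) 10.65, 10.86 and 10.87, and vha-17 (subunit e) 11.47, 11.44 and 11.40. For vha-4 the control and GO values are an exact tie. The accessory genes vha-19 and vha-20, counterparts of the mammalian Ac45 protein and of the prorenin receptor, differed by 0.32 and -0.02 with GO and by 0.10 and -0.20 with rGO.

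**Figure D2:**
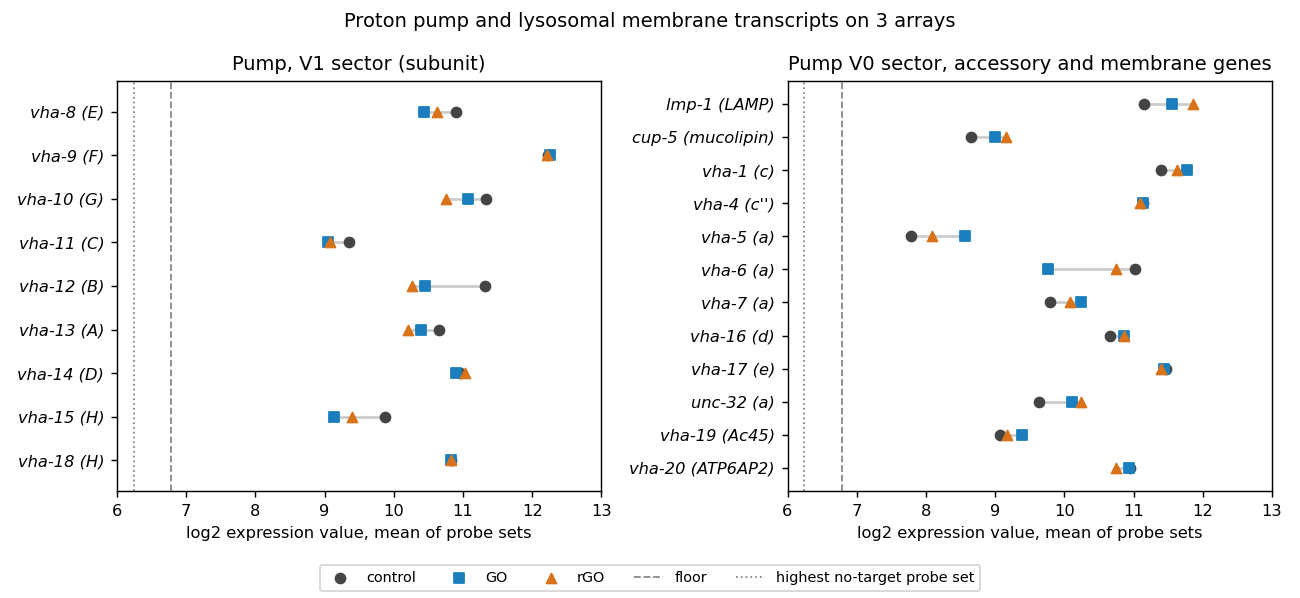
Log2 expression values of the pump's V1 genes (left) and of V0, accessory and lysosomal membrane genes (right) on the control (circle), GO (square) and rGO (triangle) arrays, with the subunit in brackets. Most genes span less than 1 unit over the 3 arrays, and vha-6 and vha-12 span more, with the control value highest.

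The lysosomal membrane genes had small positive differences. cup-5, the worm mucolipin, an ion channel needed to form lysosomes, had 8.65 in control worms, 8.99 with GO and 9.16 with rGO, differences of 0.35 and 0.51. lmp-1, a relative of the LAMP proteins that coat the lysosomal membrane, had 11.15, 11.56 and 11.85, differences of 0.41 and 0.71. Both genes were higher on the rGO array than on the GO array, and under 2-fold. The 2 probe sets of lmp-1 disagreed, at 0.09 and 0.74 for GO and at 0.00 and 1.42 for rGO. The 0.00 is an exact tie of the control and rGO values, of the kind the summary step produces.

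Of the 47 genes, 11 are read by more than 1 probe set, and these show how far probe sets of a gene may part. In vha-11, subunit C, the 3 probe sets gave 0.09, -0.01 and -0.90 for rGO. The dimmest of them was at 6.31 on the control array, close to the level of probe sets without a target. None of the 7 lower proteases has a second probe set that could be set beside the first.

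**Figure D3:**
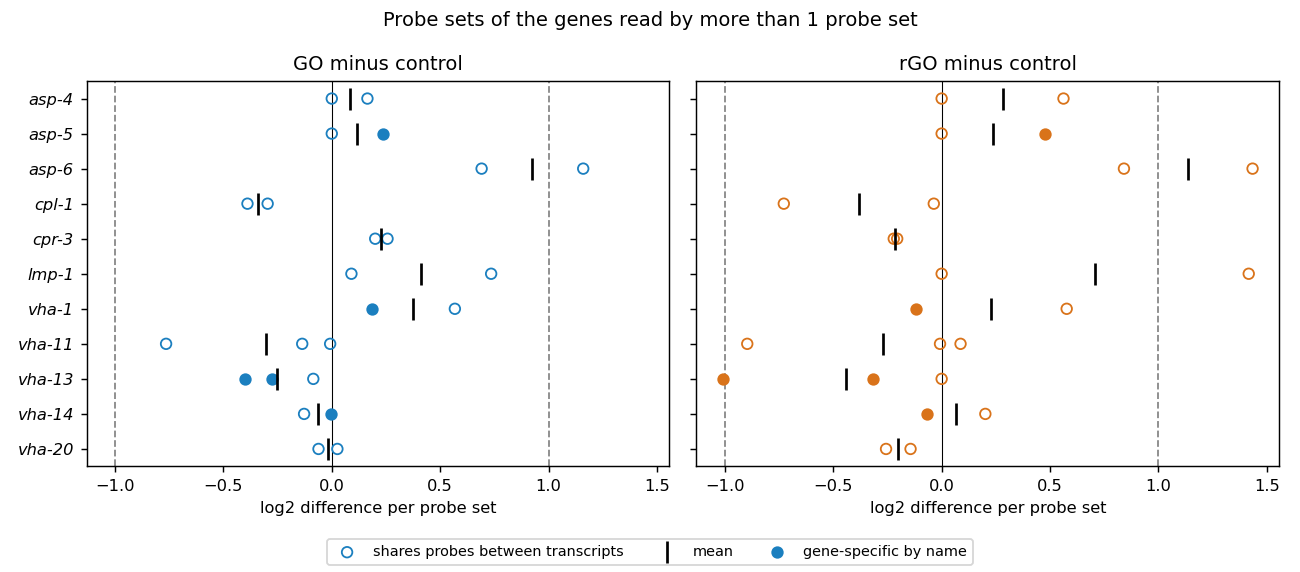
Log2 difference from the control array for each probe set of the 11 genes with more than 1 probe set, GO on the left and rGO on the right. Open circles share probes between transcripts by the maker's naming, filled circles do not, and the black tick is the mean. asp-6 lies to the right of 0 in all 4 values, and lmp-1, vha-11 and vha-13 differ most among their probe sets with rGO.

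Set side by side, the gene groups differed in spread more than in centre. For the 10 aspartic proteases above the floor the medians were -0.19 (GO) and -0.06 (rGO), and for the 11 cysteine proteases they were -0.06 and 0.10.

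**Figure D4:**
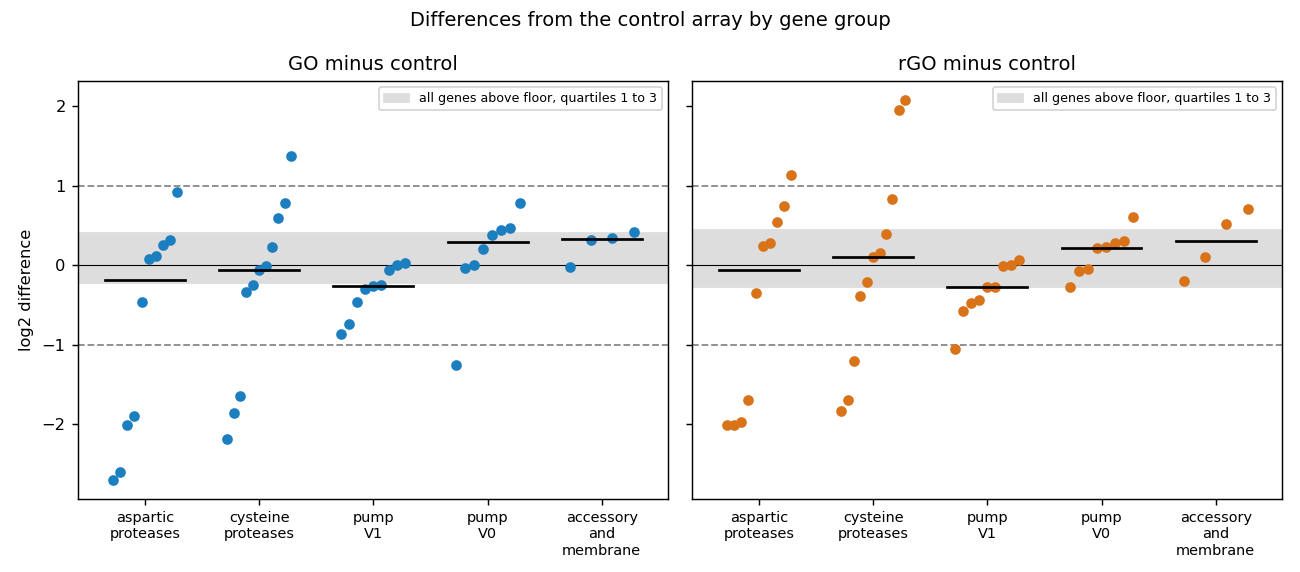
Log2 differences from the control array of the members above the floor, GO on the left and rGO on the right, by gene group. Each point is a gene, the black line is the group's median, the grey band holds the middle quartiles of all genes and the dashed lines mark 2-fold. The proteases reach from below -2 to above 1 in the GO panel, whereas most pump genes lie between the dashed lines.

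Other lysosomal genes were described by a list of 46 genes, of which 39 had a probe set of their own and 31 (GO) or 34 (rGO) were above the floor. With GO, 2 were higher and 1 was lower by 2-fold or more (6.45% and 3.23%), with a median of 0.14. With rGO, 3 were higher and 4 lower (8.82% and 11.8%), with a median of 0.24. The shares for all genes were 8.43% and 9.76% with GO and 7.99% and 9.88% with rGO. pcp-2, a prolyl carboxypeptidase-like protease outside the families chosen here, was lower with both, at -1.62 (3.07-fold) and -1.92 (at least 3.34-fold). Its relative pcp-5 was at -0.94 and -1.50. nuc-1, the lysosomal DNase II, was at 0.89 and 1.64. ppt-1, a palmitoyl-protein thioesterase, was at 1.34 and 0.53, and the chloride channel gene clh-6 at 1.19 (at least 2.03-fold) and 1.25. cln-3.1, a relative of a human Batten disease gene, was lower by at least 1.47-fold with either exposure, as both its exposed values were below 6.24. With such values set to 6.24, 3 genes rather than 4 were lower with rGO. In the GO minus rGO comparison 31 genes were above the floor. None of these was higher, and 2 were lower (6.45%), asah-1, an acid ceramidase (-1.12), and aagr-1, related to acid glucosidase (-1.01). Of all genes in that comparison, 5.59% were higher and 3.73% lower.

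Of 5 listed protease inhibitors 2 were measured. cpi-1, a cystatin that blocks cysteine proteases, had 10.54 in control worms, 11.83 with GO and 11.99 with rGO, differences of 1.29 (2.44-fold higher) and 1.45. cpi-2, the other cystatin, had 9.38, 9.39 and 9.10. The 4 genes of pump assembly and lysosomal nutrient signalling above the floor were all under 2-fold. They were lmtr-2, raga-1, ragc-1 and rbc-1, with differences from 0.24 to 0.46 with GO and from 0.05 to 0.76 with rGO.

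The intestine itself was checked with 16 markers, all above the floor. With GO, 4 were at least 2-fold lower and none higher, and with rGO again 4 were lower and none higher, or 4 of 16 each time. Of all genes, 9.76% and 9.88% were lower and 8.43% and 7.99% higher. Values were below the control for 10 of the 16 with GO and for 10 with rGO, where 38.8% and 40.2% of all genes were. The medians of the markers were -0.18 and -0.29, beside 0.03 for all genes in either comparison. The lower ones were pho-1, an intestinal acid phosphatase (-1.93 with GO, and at least 7.10-fold lower with rGO, where it was below 6.24), act-5, the actin of the microvilli (-1.66 and -2.14), and pept-1, the peptide transporter (-1.24 and -1.51), with ges-1, the gut esterase, added with GO (-1.26) and ifd-2, a filament gene, with rGO (-1.58). Under 2-fold but below the control in both comparisons were ifc-2 (-0.90 and -0.71), nhx-2 (-0.56 and -0.43), mtl-2 (-0.24 and -0.59), erm-1 (-0.13 and -0.15) and ifb-2, and ifd-2 and ges-1 were in the comparison where they were not counted (-0.74 and -0.44). Above the control in both were the gut transcription factors elt-2 (0.23 and 0.13) and elt-7 (0.39 and 0.54), the yolk genes vit-2 (0.30 and 0.30) and vit-6 (0.35 and 0.31), sid-2 (0.12 and 0.43) and ifo-1 (0.19 and 0.03). The summed log2 level of the 16 markers was 157.5 in control worms, 150.3 with GO and 147.9 with rGO, where pho-1 was below 6.24. Their part in the lower proteases was not tested.

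Markers of other tissues also differed between these arrays. Their counts stand beside 9.76% (GO) and 9.88% (rGO) of all genes lower and 8.43% and 7.99% higher, and lists this short give coarse shares. Of the sperm markers above the floor, 4 of 5 were lower with GO and 4 of 5 with rGO. The 4 were all below 6.24 with GO, so their median of -3.40 is not a measured size, and it was -3.01 with such values set to 6.24. The rGO median was -1.79. The summed level of the 6 sperm markers measured was 49.2 (control), 35.8 (GO) and 42.2 (rGO), and spe-9 was below the level of probe sets without a target throughout. The GO sum holds values below 6.24 for spe-9 and for the 4 lower genes, so it is not a measured level. In the rGO sum, spe-9 and spe-11 were below 6.24. Muscle markers had 2 of 7 lower with GO and 0 of 7 with rGO, and 7 of 7 had a value below the control with GO and 2 of 7 with rGO. Of all genes above the floor, 38.8% (GO) and 40.2% (rGO) had a value below the control, and 52.6% and 52.4% a value above it. Epidermal markers had 2 of 9 higher and 3 of 9 lower with GO, and 2 of 8 lower with rGO. The higher ones with GO were dpy-7 (1.46) and che-14 (at least 2.14-fold). Lower with GO were col-19 (-4.20), rol-6 (-1.59) and bli-1 (at least 1.83-fold). Lower with rGO were rol-6 (-1.58) and bli-1 (at least 1.83-fold), while col-19, at -0.91, was under 2-fold. The epidermal medians were 0.30 with GO and -0.20 with rGO. With values below 6.24 set to 6.24, the lower epidermal counts were 2 of 9 and 1 of 8. Neuron markers had none of 7 past 2-fold with GO and 2 of 7 higher with rGO. Pharynx markers had 1 of 6 higher in each comparison, ceh-22, by at least 3.1-fold with GO and at least 1.53-fold with rGO. With values below 6.24 set to 6.24, the pharynx count stayed 1 of 6 with GO and became 0 of 6 with rGO. A value above the control was found for 6 of 7 neuron markers and 6 of 6 pharynx markers in each comparison. In the excretory canal, where the pump is also abundant, aqp-8 was lower with GO (-1.12) and exc-5 higher with rGO (1.05), of 4 and 3 markers above the floor. None of the 3 coelomocyte markers reached the floor, and cup-4 stayed below 6.24 on all 3 arrays. The part of these tissues in the results was not tested.

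**Figure D5:**
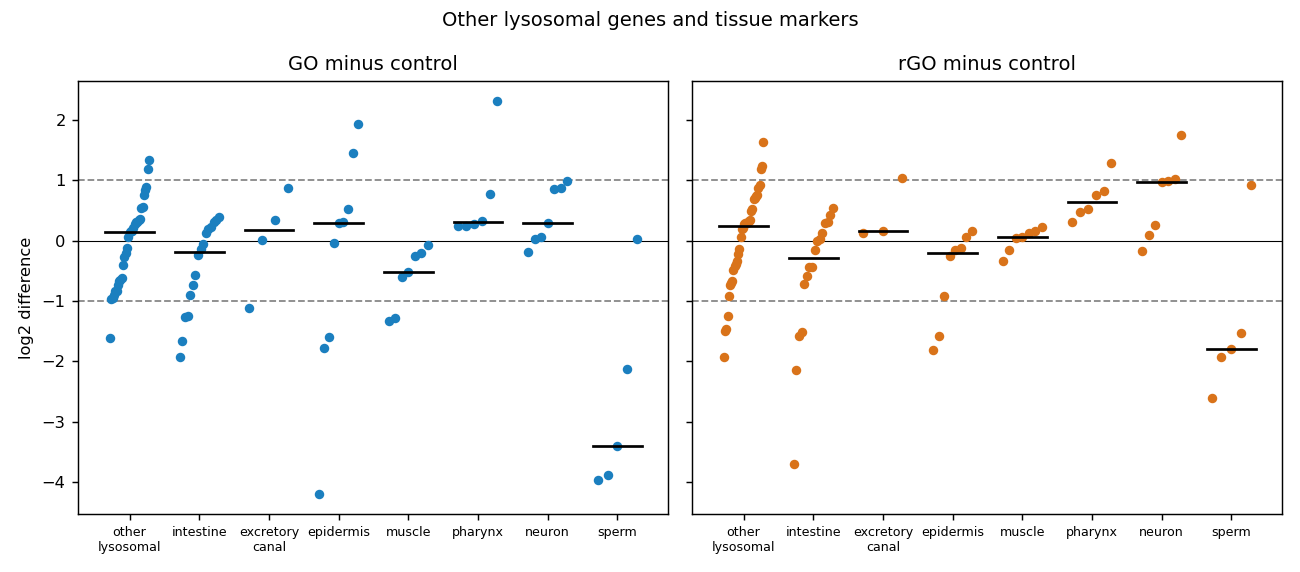
Log2 differences from the control array of the other lysosomal genes and of tissue markers above the floor, GO on the left and rGO on the right. Each point is a gene, the black line is the list's median and the dashed lines mark 2-fold. Values are plotted as deposited, including those below 6.24, such as the 4 lowest sperm markers in the GO panel and pho-1 in the rGO panel, whose size is not exact. Of the lists shown, sperm markers have the lowest medians.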

How the data were processed

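RNA of whole worms was measured with 1 array per condition (3 arrays). The authors deposited 1 value on the log2 scale for each probe set. The submitters' processing notes name RMA, GCOS and Affymetrix Expression Console, without versions. RMA equalises the distributions of the arrays, so a general change of RNA per worm cannot be seen, and its summary over 3 arrays gives exact ties. Per the labels' protocols, 300 ng of total RNA was amplified with a whole-transcript kit.

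Of 22625 probe sets, 20766 carry 1 gene in the platform annotation of 2016, 887 several, 895 none and 77 are controls. Of the single-gene probe sets, 20701 were found in the RefSeq table of WBcel235, which gave symbols, gene order and chromosomes. Probe sets of a gene were averaged (Python 3.11.15, pandas 2.3.3). A fold is a lower bound, taken against 6.24, where the dimmer value was under 6.24. Counting was checked on simulated data. The number of arrays limits the precision, and probe sets were not compared with each other in level. The members, lists and limits were chosen with earlier results of these data known. Members may all be named. From each other list, up to 4 genes with the largest difference were named, and further ones were chosen after their values were seen. Alternatives were the floor, the choice of probe sets, the size rule and a further quantile normalisation.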

Additional observations from a re-analysis of the deposited data

Results flagged for a closer look

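For 6 genes the GO and rGO differences from the control array had opposite signs. With 1 array per condition this was not tested, and each of these differences was under 2-fold. cpz-1 was at -0.25 with GO and 0.39 with rGO, and cpr-3 at 0.23 and -0.21. cpr-1 was at -0.0053 and 0.15, cpr-6 at -0.063 and 0.10, vha-14 at -0.065 and 0.067, and vha-9 at 0.025 and -0.0064.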

How the results depend on the processing

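No paired analysis was possible because each condition has 1 array. The further quantile normalisation and the probe sets of several genes moved none of the counts by more than 1.5 times and no median by more than the typical SD among probe sets of 1 gene, 0.20 (GO minus control), 0.33 (rGO minus control) and 0.26 (GO minus rGO). For proteases with GO, the higher count of 1 became 0 with the floor at the 75th percentile, 2 with the brightest probe set per gene (asp-6 at 1.16) and 4 of 21 at a limit of 1.5-fold (17.8% of all genes). Without probe sets that share probes, the 7 lower proteases became 4 of 13 with GO and 4 of 13 with rGO. The 1 lower gene of the pump and membrane group became 0 of 7 in each comparison. Shares of all genes are not given here for this setting, for the higher floor or for the brightest probe set. The genes lost (asp-13, asp-14, cpr-5, vha-6 and vha-12) have no other probe set, so fewer genes were read. At 1.5-fold, proteases higher with rGO went from 3 to 5 of 21 (19.1% of all genes) and proteases lower with GO than with rGO from 1 to 5 of 19 (10%). At 1.5-fold the pump and membrane group had 1 higher and 3 lower with GO, 2 higher with rGO, and 1 lower in GO minus rGO, each of 21 (17.8%, 15%, 19.1% and 10% of all genes). No gene counted at 2-fold changed direction. With 1 array per condition, differences between cultures cannot be separated from those of exposure.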
